A study of Mus musculus with 12 samples.

Results

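The 6 genes described here code for receptors of selective autophagy: Sqstm1 (p62), Nbr1, Optn (optineurin), Tax1bp1, Calcoco1 and Tollip. They were chosen by name, as the rows of the count table that carry these 6 symbols among 25171 loci, and all 6 were found and passed the filter on low counts in every comparison. They were measured by RNA-seq of heart tissue from 12 mice, 3 in each of 4 groups. The sample titles do not say which part of the heart was taken. The question was how the hearts of mice that make the polyglycine protein of NOTCH2NLC-(GGC)98 differ from their controls. Every mouse carried this construct, with 98 GGC repeats, in the Rosa26 site behind a stop sequence flanked by loxP sites. EIIa-tg mice also carried E2a-Cre, a Cre active throughout the body, while the EIIa-ctl mice had no Cre, and both groups were taken at postnatal day 30. By the labels and methods, Myh6-tg mice carried Myh6-creERT2, an inducible Cre driven by a cardiomyocyte promoter, and received 3 intraperitoneal doses of tamoxifen (75 mg/kg, every other day) from day 60. Myh6-ctl mice are labelled as carrying the same Cre and as given corn oil, and both groups were taken at day 90. The Esr1 counts given below go against this for the libraries labelled Myh6-tg, so every direction in the Myh6 model is that between the groups as labelled. Age, Cre line and injection therefore differ together between the models and cannot be told apart. Within the EIIa model the presence of Cre and expression of the construct cannot be told apart. Within the Myh6 model tamoxifen, Cre activity and any difference in the Cre itself cannot be told apart.

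Autophagy receptors hold cargo with one part of the protein and bind an ATG8-family protein (LC3 or GABARAP) on the growing autophagosome with another, through a short stretch called the LC3-interacting region. SQSTM1 gathers ubiquitinated proteins into condensates that become inclusions, and it also binds KEAP1, the adaptor that keeps the transcription factor NRF2 low. Sqstm1 is itself an NRF2 target gene. In muscle, SQSTM1 and NBR1 are also known as partners of the titin kinase at the sarcomere, and OPTN and TAX1BP1 are known as receptors for damaged mitochondria and protein aggregates.

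The bases that code for the LC3-interacting region of 3 of these receptors are shown because this stretch binds the ATG8-family proteins. They were read from GENCODE M21 coding transcripts (GRCm38) by a search for the core codons of the region of each gene, in frame and on the coding strand only. Capitals mark the matched codons, which begin at codon 340 of Sqstm1 (chr11:50202541-50202552, minus strand), codon 188 of Optn (chr2:5045996-5046007, minus strand) and codon 750 of the longest Nbr1 transcripts (chr11:101575142-101575153, plus strand). Each of these matches lies in a coding exon.
Sqstm1: gacgatgacTGGACACATTTGtcttca
Optn: gaagactccTTCGTTGAGATCaggatg
Nbr1: tctgaagatTATATCATCATCcttcct
Each gene was searched with its own pattern, so the patterns fixed in part which codons differ between the genes.

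The promoters of the 3 receptors that passed the test in a transgenic heart are shown because these are the members whose RNA moved. Each run is the 250 bases before the RefSeq start (GRCm38.p6), written 5′ to 3′ on the strand of the gene, with GGGCGG (the GC box, found as GGGCGG or CCGCCC) in capitals.
Sqstm1 (chr11:50210821-50211070, minus strand): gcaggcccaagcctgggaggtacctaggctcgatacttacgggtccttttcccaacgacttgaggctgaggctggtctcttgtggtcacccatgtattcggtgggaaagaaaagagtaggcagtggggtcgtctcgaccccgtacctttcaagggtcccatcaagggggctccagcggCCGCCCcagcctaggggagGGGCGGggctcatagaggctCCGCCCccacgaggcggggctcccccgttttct
Optn (chr2:5064118-5064367, minus strand): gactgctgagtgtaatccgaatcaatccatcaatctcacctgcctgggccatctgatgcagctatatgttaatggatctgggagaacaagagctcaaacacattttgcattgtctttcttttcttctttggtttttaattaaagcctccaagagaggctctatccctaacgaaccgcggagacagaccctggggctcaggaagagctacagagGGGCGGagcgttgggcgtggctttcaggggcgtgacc
Tax1bp1 (chr6:52713479-52713728, plus strand): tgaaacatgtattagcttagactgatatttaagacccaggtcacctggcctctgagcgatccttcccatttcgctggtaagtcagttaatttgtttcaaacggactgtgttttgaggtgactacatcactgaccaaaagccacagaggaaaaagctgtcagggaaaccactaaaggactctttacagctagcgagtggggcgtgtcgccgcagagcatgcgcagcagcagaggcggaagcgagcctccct
The Sqstm1 window holds 3 GC boxes, at 72, 53 and 33 bases before the start, the Optn window 1, and this Tax1bp1 window none. The background is 32851 RefSeq promoter windows, cut to the same 250 bases before the start, with a chromosome left out. Of these, 32.7% hold at least 1 GC box, so its presence in Sqstm1 and Optn is common. The letters TGACNNNGC, the core of the antioxidant response element that NRF2 binds, and CACGTG, bound by TFEB and its relatives, were not in the 3 windows shown. A second RefSeq window of Tax1bp1 (chr6:52713915-52714164, plus strand) holds 1 TGACNNNGC, and it has no GC box or CACGTG. These letters occur in 10.2% and 6.02% of the background windows. All were searched on both strands, and these letters were chosen after the expression values were seen.

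Between 38343106 and 50969834 reads per heart were counted, and 3 counts, taken as the floor, correspond to 0.0589 to 0.0782 CPM, the counts scaled to equal library size. Such a floor covers counting error only, and all 6 receptors lie far above it. Levels below are CPM normalized over the 12 hearts by trimmed mean of M values (TMM), and FPKM, which is per length, where genes are compared with each other. In each transgenic group 1 heart stood apart in the summed CPM of 10 cardiomyocyte markers: Myh6-tg replicate 1 had 34290, against 15936 and 11907 in the other Myh6-tg hearts, and EIIa-tg replicate 2 had 46679, against 27339 and 26237. Without EIIa-tg replicate 2 the number of genes called in the EIIa comparison rose from 2527 to 4079, and without Myh6-tg replicate 1 that in the Myh6 comparison rose from 2805 to 4269. Replicate 1 of each group was also the only heart with reads of 4 Y-linked genes (4224 to 7307 counts, against at most 2 in the others). Esr1, the gene of the receptor whose hormone-binding part an inducible Cre carries, had 53433 to 103037 counts in Myh6-ctl hearts, 53 to 116 in Myh6-tg hearts and 15 to 54 in the EIIa groups, so the Myh6-tg libraries go against the label, which gives both Myh6 groups the same Cre. Although the labels' extraction text names brain, all 10 cardiomyocyte markers were detected in these libraries.

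Sqstm1 (ENSMUSG00000015837, chr11:50199366-50210827, minus strand) rose in both models. Its CPM was 374.8, 398.9 and 352.1 in the EIIa-ctl hearts and 1207, 785.4 and 1258 in the EIIa-tg hearts. All 3 EIIa-tg hearts lay above all 3 controls, and replicate 2 was the lowest of them. The change was 2.88-fold (log2 fold change 1.52 ± 0.18, standard error, n = 3 per group, edgeR quasi-likelihood test, adjusted p = 0.0135). In the Myh6 model its CPM was 445.9, 941 and 605 in controls and 1782, 1999 and 2007 in Myh6-tg hearts. The controls spread more here than the younger EIIa-ctl hearts, with a coefficient of variation of 38.1% against 6.24%, and the groups again did not overlap. The change was 2.91-fold (log2 fold change 1.54 ± 0.31, edgeR adjusted p = 0.0166). The share of all genes whose groups do not overlap was not counted, so non-overlap here and below carries no weight of its own. Unadjusted edgeR p was under 0.05 for 5204 of 14908 genes in the EIIa and 5210 of 15298 in the Myh6 comparison.

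The calls on Sqstm1 were lost when certain single hearts were left out, while its direction was kept. Without EIIa-tg replicate 2 the log2 fold change of Sqstm1 was 1.70 (edgeR adjusted p = 0.000237). Without EIIa-ctl replicate 1, EIIa-ctl replicate 3 or EIIa-tg replicate 1 the edgeR adjusted p was 0.0769, 0.0785 and 0.0538, while the log2 fold change stayed between 1.41 and 1.70 over all 6 omissions. Without Myh6-ctl replicate 1 or 3, or Myh6-tg replicate 2 or 3, it was 0.0622, 0.0626, 0.0604 and 0.0555, with log2 fold changes between 1.32 and 1.88. In the EIIa model the number of genes called fell from 2527 to 0 when either replicate 1 was left out.

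Across the 4 groups the order of Sqstm1 was EIIa-ctl, Myh6-ctl, EIIa-tg and Myh6-tg, with means of 375.2 ± 23.4, 664 ± 253, 1083 ± 259 and 1929 ± 128 CPM (SD, n = 3). The neighbours Myh6-ctl and EIIa-tg overlapped, since Myh6-ctl replicate 2 (941 CPM) lay above EIIa-tg replicate 2 (785.4 CPM), and no other neighbours did. The rise in the Myh6 model minus that in the EIIa model was 0.01 on the log2 scale, with a 95% confidence interval from −0.79 to 0.80, so a difference of either sign was not detectable within that width. The control hearts themselves differed by 0.82 ± 0.25 on the log2 scale, with Myh6-ctl higher in 3 of 3 hearts, which did not pass with edgeR (adjusted p = 0.257) and passed with DESeq2 (adjusted p = 0.0255). The 3′ end of Sqstm1 shares 580 exon bases (17.3%) with Mrnip on the opposite strand, and Mrnip had 422 counts in the 12 hearts together against 559208 for Sqstm1.

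**Figure D1:**
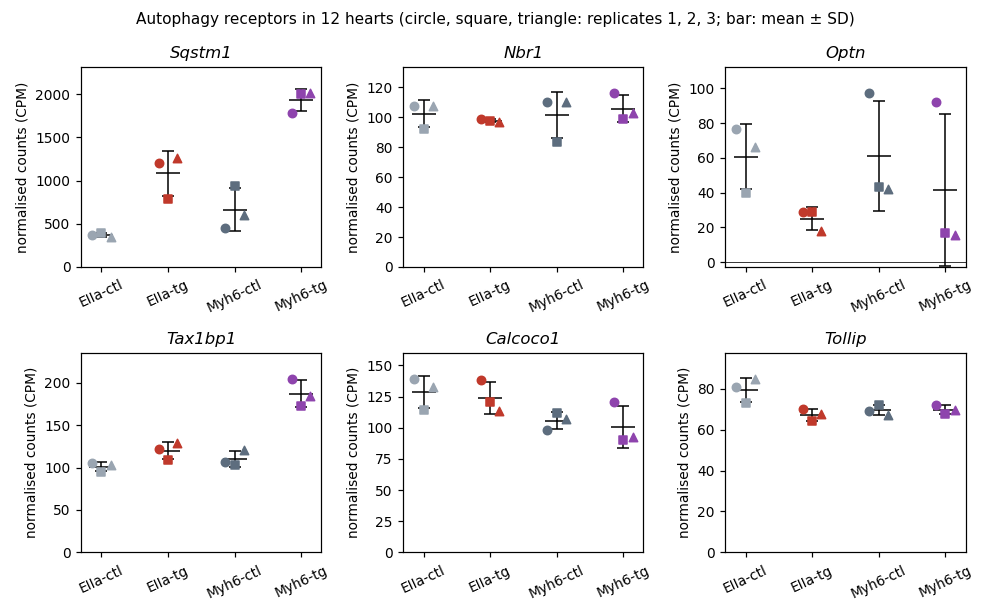
Normalized counts (CPM) of each receptor in each heart by group, with the mean and SD (n = 3) as bars. Sqstm1 and Tax1bp1 lie higher in the transgenic hearts of both models, Optn lies lower in EIIa-tg, and Myh6-tg replicate 1 (circle) stands at 92.28 CPM of Optn, away from the other Myh6-tg hearts at 16.79 and 15.77.

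Optn (ENSMUSG00000026672, chr2:5020642-5064051, minus strand) moved the other way. Its CPM was 76.42, 39.87 and 66.04 in EIIa-ctl hearts and 28.95, 28.67 and 17.71 in EIIa-tg hearts. The EIIa groups did not overlap, and Optn fell by 1.28 on the log2 scale (SE 0.27, edgeR adjusted p = 0.0227), to 0.41 of the control level. The call was lost without EIIa-ctl replicate 1 (adjusted p = 0.0918), EIIa-ctl replicate 3 (0.0918), EIIa-tg replicate 1 (0.0653) or EIIa-tg replicate 3 (0.0700), and with all 12 hearts in one edgeR fit (0.246). In the Myh6 model Optn stood at 97.4, 43.55 and 42.4 CPM in controls and at 92.28, 16.79 and 15.77 in Myh6-tg hearts. The groups overlap through Myh6-tg replicate 1 alone, and the log2 fold change was −0.56 ± 0.70 (edgeR adjusted p = 0.621). Without that heart it was −1.91 (edgeR adjusted p = 0.0137), with the replicate number as a block −0.96 (adjusted p = 0.0640), and with Y-linked reads as a covariate −0.96 (adjusted p = 0.0445). In every group the heart with Y-linked reads had the highest Optn. The part of sex in this spread was not tested beyond that covariate, under which the fall in the EIIa model was −1.26 (edgeR adjusted p = 0.0327).

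Optn lay beside heart muscle genes over the 12 hearts. Among 10205 genes with a mean of at least 5 CPM, the 3 with the profile most like it, by the root mean square difference of centred log2 CPM, included Ryr2 (0.325), the calcium release channel, and Gys1 (0.376), the muscle glycogen synthase, where the spread of Optn itself was 0.898. Myh6-tg replicate 1 was the highest heart of its group for both of these genes. The ratio of Optn to Ryr2 in FPKM, chosen after its values were seen, was 0.670 ± 0.121 for EIIa-ctl, 0.611 ± 0.206 for EIIa-tg, 0.793 ± 0.264 for Myh6-ctl and 0.619 ± 0.0692 for Myh6-tg (SD, n = 3). These 4 ranges overlap. The 10 cardiomyocyte markers summed to 53890 to 63062 CPM in EIIa-ctl and 26237 to 46679 in EIIa-tg, and to 40244 to 56543 in Myh6-ctl and 11907 to 34290 in Myh6-tg. Of these markers 2 of 10 and 6 of 10 fell in the EIIa and the Myh6 comparison, against 8.30% and 9.38% of all genes. Unadjusted edgeR p was under 0.05 for 8 and 6 of 10, and DESeq2 called 6 lower in each. The median log2 fold change was −0.81 and −2.02 over the list, against 0.02 and 0.03 over all genes. In the EIIa comparison 8 of 10 fell without EIIa-tg replicate 2, 1 without EIIa-ctl replicate 2, and 0 without any one of the other hearts or with the sex covariate. Between the Myh6 groups 2 fell without Myh6-tg replicate 2, 3 without Myh6-ctl replicate 1 and 4 to 7 without any one of the others. Their part in the change of Optn was not tested. In bulk heart tissue fewer cardiomyocytes, less RNA per cardiomyocyte and a different part of the heart cannot be told apart.

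**Figure D2:**
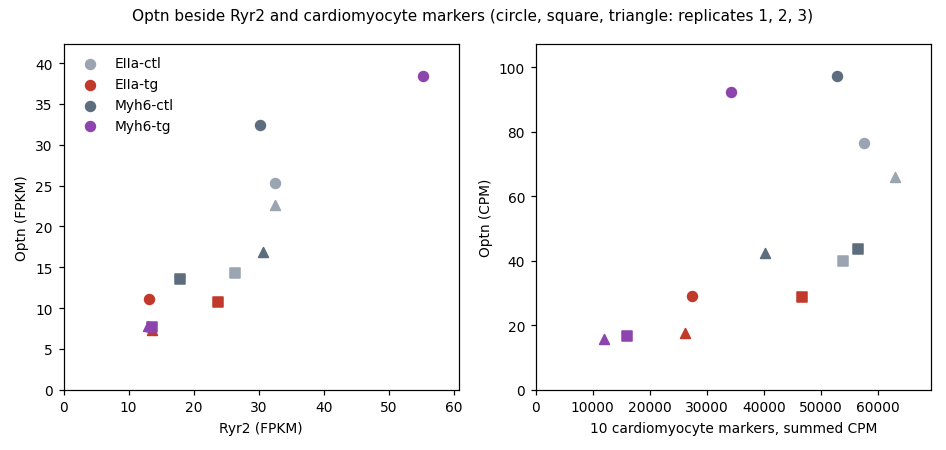
Optn in each heart against Ryr2 (left, both in FPKM) and against the summed CPM of 10 cardiomyocyte markers (right), coloured by group, with shapes for the replicates. Myh6-tg replicate 1 (circle) has the highest Ryr2 and Optn FPKM of all hearts, 55.25 and 38.48, while its marker sum of 34290 CPM lies below every control heart.

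Tax1bp1 (ENSMUSG00000004535, chr6:52713729-52766780, plus strand) passed in the Myh6 model. Its CPM was 107, 102.8 and 120.3 in Myh6-ctl and 204.3, 172.5 and 184.1 in Myh6-tg hearts. No heart overlapped, replicate 1 included, and Tax1bp1 rose 1.70-fold (log2 fold change 0.76 ± 0.17, edgeR adjusted p = 0.0219). The call was lost without Myh6-ctl replicate 1 (adjusted p = 0.0849), Myh6-ctl replicate 2 (0.0557), Myh6-tg replicate 2 (0.0724) or Myh6-tg replicate 3 (0.0799), at log2 fold changes from 0.69 to 0.82. In the EIIa model its CPM was 105.4, 94.88 and 102.5 in controls and 121.6, 108.6 and 128.4 in EIIa-tg hearts. These groups do not overlap either, though how many of all genes separate this way was not counted. The log2 fold change of 0.24 ± 0.09 did not pass (edgeR adjusted p = 0.111). The difference between the models was 0.52 on the log2 scale with a 95% confidence interval from 0.14 to 0.90, which did not pass over all genes with edgeR (unadjusted p = 0.0117, adjusted p = 0.125) and passed with DESeq2 (adjusted p = 0.0449).

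Nbr1, Calcoco1 and Tollip did not pass in any comparison. Nbr1 (ENSMUSG00000017119, chr11:101552149-101581951, plus strand), which resembles p62 in its domains, ranged from 83.38 to 115.7 CPM over the 12 hearts, with log2 fold changes of −0.07 ± 0.09 in the EIIa and 0.06 ± 0.18 in the Myh6 model. Its 95% confidence intervals reached from −0.28 to 0.14 and from −0.36 to 0.49, so they do not reach the size of the change of Sqstm1. Calcoco1 (ENSMUSG00000023055, chr15:102706777-102722178, minus strand), a receptor for the endoplasmic reticulum and Golgi, ranged from 89.96 to 139.2 CPM, with log2 fold changes of −0.06 ± 0.11 and −0.07 ± 0.18. It was lower in Myh6-ctl than in EIIa-ctl in 3 of 3 hearts, by −0.28 ± 0.13, which did not pass (edgeR adjusted p = 0.469).

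Tollip (ENSMUSG00000025139, chr7:141874813-141918507, minus strand), an adaptor of Toll-like receptor signalling that also binds ubiquitin and LC3, had the narrowest range of the 6 genes. Its CPM was 80.57, 72.96 and 84.69 in EIIa-ctl and 70.03, 64.07 and 67.56 in EIIa-tg hearts. The EIIa-tg hearts all lay below the controls, at a log2 fold change of −0.24 ± 0.09 that did not pass (edgeR adjusted p = 0.0949). In the Myh6 model it lay between 67.22 and 71.96 CPM in controls and between 67.61 and 72.1 in Myh6-tg hearts, at a log2 fold change of 0.01 ± 0.15. The sign of the Nbr1 and Calcoco1 changes in the EIIa comparison, of Calcoco1 in the Myh6 comparison and of Tollip in the Myh6 comparison turned under other scalings.

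In all, 2 of the 6 receptors passed in the EIIa comparison (Sqstm1 higher and Optn lower), where 17.0% of 14908 genes tested passed, 8.65% as higher and 8.30% as lower. In the Myh6 comparison 2 of 6 passed (Sqstm1 and Tax1bp1, both higher), where 18.3% of 15298 genes passed, 8.96% as higher and 9.38% as lower. Single hearts decide these counts: in the EIIa comparison 0 of 6 receptors passed without EIIa-ctl replicate 1 or 3 or EIIa-tg replicate 1, 1 without EIIa-tg replicate 3, and 3 without EIIa-tg replicate 2, where Tax1bp1 was the third (0.30, edgeR adjusted p = 0.0451). In the Myh6 comparison 0 of 6 passed without Myh6-ctl replicate 1, Myh6-tg replicate 2 or Myh6-tg replicate 3, 1 without Myh6-ctl replicate 2 or 3, and 3 without Myh6-tg replicate 1, where Optn was the third. The median log2 fold change of the 6 was −0.06 in the EIIa and 0.03 in the Myh6 comparison, against 0.02 and 0.03 over all genes. In size, 4.88% of all genes had a larger change than Sqstm1 in the EIIa comparison, and 12.5% in the Myh6 comparison. With edgeR no receptor passed the difference between models, where 3.92% of 15929 genes passed, although 1 of 6 had an unadjusted p under 0.05, or the comparison of control hearts, where 0.0334% of 14990 genes passed and 1 of 6 had an unadjusted p under 0.05. DESeq2 called 1 receptor in each of these (Tax1bp1 and Sqstm1). With the adjusted p held under 0.01 and the change required to be 2-fold or more (1 on the log2 scale), edgeR called no receptor, and 0% of genes in the EIIa and 3.97% in the Myh6 comparison. DESeq2 called Sqstm1 and Optn in the EIIa and Sqstm1 in the Myh6 model at that threshold, and in the Myh6 model edgeR also called Sqstm1 with the replicate number as a block (adjusted p = 0.00872), with the sex covariate (0.00789) and with all 12 hearts in one fit (0.00129). In the EIIa model edgeR called Sqstm1 there without the filter on low counts (adjusted p = 0.00339), where 344 genes were called in all, and without EIIa-tg replicate 2, where 921 were. Limma on FPKM called Sqstm1 and Tax1bp1 in the Myh6 model with a pseudocount of 0.1 or with the FPKM filter. The comparisons share hearts, so the values for the 2 models and their difference are not independent of each other where a control group is used again.

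**Figure D3:**
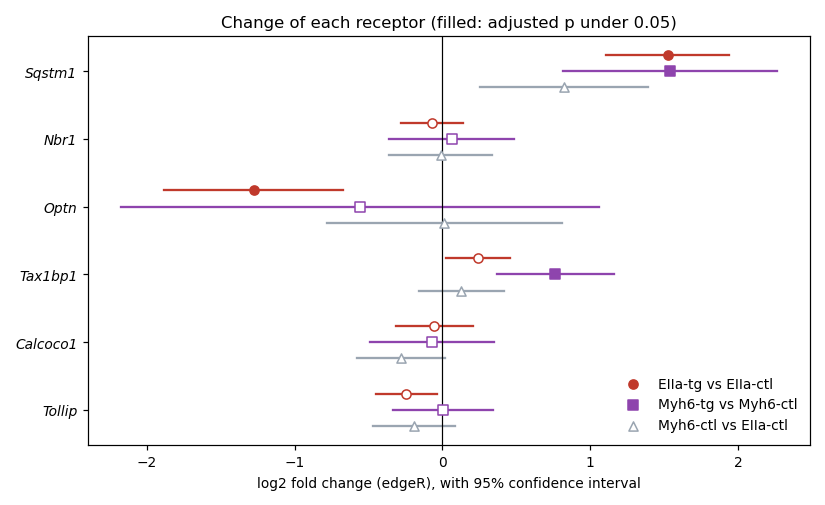
Log2 fold change of each receptor with its 95% confidence interval in the EIIa, Myh6 and control comparisons, with filled symbols for an edgeR adjusted p under 0.05. Sqstm1 lies at 1.52 and 1.54 in the 2 models, Tax1bp1 at 0.24 and 0.76, and the interval of Optn in the Myh6 model, from −2.18 to 1.06, is the widest drawn.

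Per length, Sqstm1 was the most abundant of the receptors in every heart, and its share grew in transgenic hearts. It made up 54.7% ± 4.28 (SD, n = 3) of the summed FPKM of the 6 receptors in EIIa-ctl hearts and 78.7% ± 4.16 in EIIa-tg hearts, and the shares were 67.8% ± 9.66 and 85.2% ± 3.19 for Myh6-ctl and Myh6-tg. The transgenic and control shares of Sqstm1 did not overlap in either model, at 74 to 82% against 52 to 59.7% and at 81.6 to 87.3% against 57.9 to 77.2%. The summed FPKM was 279.1 ± 5.51 in EIIa-ctl and 635.2 ± 146 in EIIa-tg, where the 5 receptors other than Sqstm1 came to 126.2 ± 10.1 and 131.3 ± 7.61. In the Myh6 model the sum was 393.5 ± 78.6 in controls and 1214 ± 126 in Myh6-tg, and the 5 others came to 121.9 ± 17.5 and 176.9 ± 22. Sqstm1 stood at 5.65 ± 0.627 times Tax1bp1 in FPKM in EIIa-ctl and 13.5 ± 2.26 times in EIIa-tg hearts, and at 9.29 ± 3.87 and 15.5 ± 2.05 times in Myh6-ctl and Myh6-tg hearts. These values carry no test. FPKM moves with the reads that mitochondrial genes take, which were 15.49% to 18.57% of counts in Myh6-tg and 28.51% to 38.27% in the other groups. This scaling cancels in the shares and ratios but not in the sums, so the higher sum of the 5 others in Myh6-tg was not separated from it. On TMM-scaled counts Nbr1, Optn, Calcoco1, Tax1bp1 and Tollip changed by 0.06, −0.56, −0.07, 0.76 and 0.01 there (log2, edgeR).

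**Figure D4:**
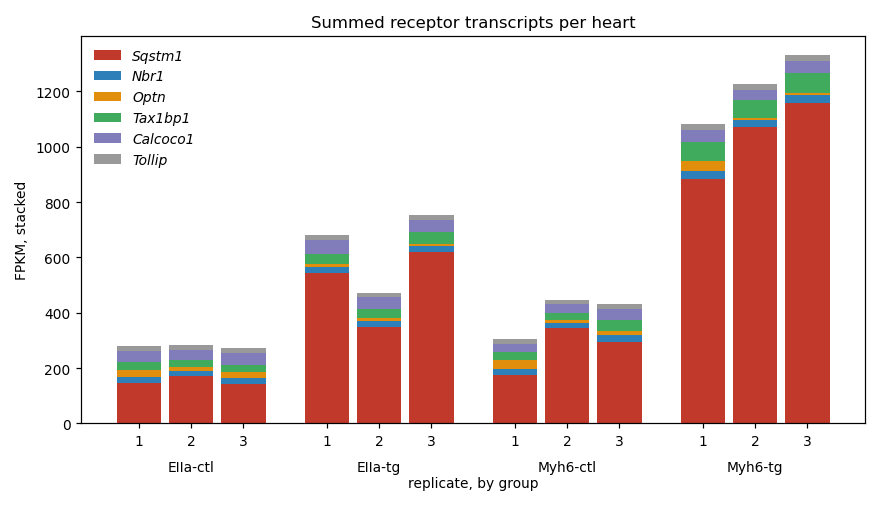
FPKM of the 6 receptors stacked for each heart, by group and replicate, on an axis that starts at 0. The Sqstm1 segment makes up most of the added height in the transgenic hearts of both models, and the 5 other segments together stay between 102.2 and 199.5 FPKM.

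The genes whose profile over the 12 hearts was most like that of Sqstm1 were Cystm1 (root mean square difference 0.153), Hist1h1c (0.172), a linker histone gene, and Arid5a (0.210), an RNA-binding regulator of inflammatory transcripts, where the spread of Sqstm1 itself was 0.918. Their mean levels follow the same order of groups, from 30.24 CPM in EIIa-ctl to 141.2 in Myh6-tg for Cystm1. For Tax1bp1 they included Cast (0.0762) and Fbrs (0.0783), against its own spread of 0.354. Nbr1, Calcoco1 and Tollip varied by 0.126, 0.201 and 0.108, so a small difference from them says little, and their 3 nearest genes lay at 0.0649 to 0.0689, 0.0938 to 0.102 and 0.0727 to 0.0836. These are likenesses over 12 hearts of 4 groups and carry no test.

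Of the genes of the ATG8 proteins, which the receptors bind, some passed. Gabarapl1, a GABARAP-family member, passed in both models, with 70.24 ± 2.22 CPM in EIIa-ctl and 122.5 ± 24.8 in EIIa-tg (log2 fold change 0.80 ± 0.14, edgeR adjusted p = 0.0178) and 105.4 ± 20.2 and 168.1 ± 4.13 in the Myh6 groups (0.67 ± 0.19, adjusted p = 0.0461). Gabarap rose in the EIIa model by 0.53 (adjusted p = 0.0217). So 2 of 5 ATG8 genes were higher in the EIIa and 1 of 5 in the Myh6 comparison, against 8.65% and 8.96% of all genes, with none lower, and the LC3 genes Map1lc3a (0.07 and −0.11) and Map1lc3b (0.24 and 0.16) did not pass in either. The count was 0 of 5 without replicate 1 or 3 of either EIIa group, and 0 of 5 without Myh6-ctl replicate 1 or 3 or Myh6-tg replicate 2 or 3.

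Of 10 genes whose products bind p62 none passed in the EIIa comparison with edgeR, where 4 had an unadjusted p under 0.05 and DESeq2 called 1. In the Myh6 comparison, where 8.96% of all genes rose, 2 of 10 did. These were Prkci (0.82, adjusted p = 0.0408), an atypical protein kinase C that binds the p62 N-terminus, and Cyld (0.77, adjusted p = 0.0426), a deubiquitinase. With the replicate number as a block Prkci did not pass (adjusted p = 0.0545), and 0 of 10 partners passed in 5 of the 6 fits without a single heart, while both kept the call without Myh6-tg replicate 1. Keap1 had log2 fold changes of 0.03 and 0.01 and Nfe2l2, the NRF2 gene, 0.26 and −0.07, and neither passed.

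Most of the NRF2 target genes tested passed. In the EIIa comparison 7 of 10 passed and all 7 were higher, where 8.65% of all genes were. The median log2 fold change was 0.77 over the list against 0.02 over all genes. In the Myh6 comparison 8 of 10 passed, all higher, where 8.96% of all genes were, with a median of 1.62 against 0.03. Slc7a11, which had few counts, is among these 8. Hmox1, which breaks down heme, stood at 14.14, 17.2 and 11.25 CPM in EIIa-ctl and 56.1, 38.26 and 66.73 in EIIa-tg, and at 18.23, 54.76 and 44.05 in Myh6-ctl and 158.9, 169.2 and 157.6 in Myh6-tg hearts. As for Sqstm1, EIIa-tg replicate 2 was the lowest of its group, and Myh6-ctl replicate 1 lay below the other Myh6-ctl hearts. Hmox1 rose by 1.91 ± 0.22 and 2.05 ± 0.37 on the log2 scale (edgeR adjusted p = 0.0135 and 0.0121), and Srxn1, which repairs oxidized peroxiredoxins, by 1.97 ± 0.23 in the EIIa model (adjusted p = 0.0135).

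Gclc and Gclm, the subunits of the enzyme that limits glutathione synthesis, rose in both models and more in Myh6-tg. Gclc stood at 15.55 ± 1.24 and 29.36 ± 4.68 CPM in the control and transgenic EIIa hearts and at 18.43 ± 2.17 and 105 ± 35 in those of the Myh6 model, and Gclm at 34.38 ± 4.53, 59.46 ± 3.48, 45.24 ± 10.8 and 186.6 ± 7.27. Their log2 fold changes were 0.91 and 0.79 in the EIIa model (edgeR adjusted p = 0.0160 for both) and 2.51 and 2.05 in the Myh6 model (0.00325 and 0.00247). They are the 2 of 10 list members that passed the test of the difference between models (1.59, adjusted p = 0.019, and 1.25, adjusted p = 0.0134). Slc7a11, the cystine importer, is among the 8 called in the Myh6 comparison, but it had only 9, 8 and 18 counts in Myh6-ctl and 165, 54 and 43 in Myh6-tg hearts. It did not pass the filter on low counts in the comparison of control hearts, so its call is no support for the list, and it was lost with the replicate block (edgeR adjusted p = 0.0549). Nqo1, often read as the model NRF2 target, did not pass (0.71 and 0.27 on the log2 scale, adjusted p = 0.0674 and 0.795), and its sign turned in the Myh6 model under the replicate block. It stood at 142.5, 33.72 and 23.81 CPM in the Myh6-tg hearts, so that replicate 1 alone lay above the controls, and without that heart Nqo1 fell (−0.94, adjusted p = 0.0251). The counts of this list rest on single hearts too: without EIIa-ctl replicate 1, EIIa-ctl replicate 3 or EIIa-tg replicate 1 none of 10 passed in the EIIa comparison, and 2 passed without EIIa-tg replicate 3, at list medians of 0.80, 0.70, 0.76 and 0.78, an alternative added after seeing the data. In that of the Myh6 groups 5 to 7 of 10 were higher with any one heart left out and 7 of 10 with the replicate block.

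**Figure D5:**
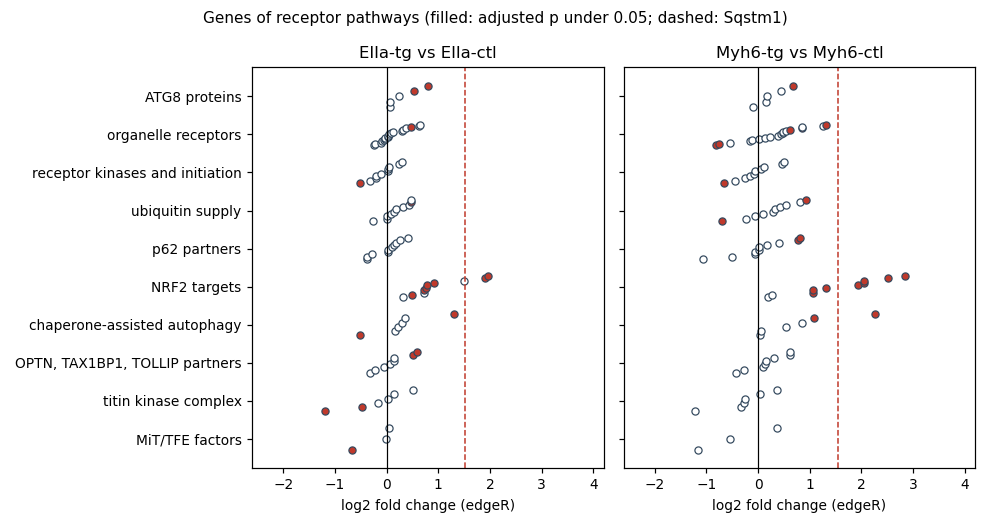
Log2 fold changes of the genes of 10 lists around the receptors in the EIIa (left) and Myh6 (right) comparisons, one point per gene, filled for an edgeR adjusted p under 0.05, with Sqstm1 as the dashed line. The NRF2 targets lie to the right of 0 throughout, with 7 and 8 of 10 filled, while most points of the other lists are open.

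The kinases upstream of the receptors held few calls. Tbk1, which phosphorylates OPTN and p62, had log2 fold changes of 0.30 and 0.49 that did not pass (edgeR adjusted p = 0.0875 and 0.0749). Of the 10 genes of this list Ulk2, an autophagy-initiating kinase, was the only one that passed with edgeR, and it fell in both models (−0.51, adjusted p = 0.0222, and −0.66, adjusted p = 0.0220). Among ubiquitin genes 1 of 10 was higher in the EIIa comparison, Ubb (0.47, adjusted p = 0.0336). In Myh6-tg hearts Uba1, the main ubiquitin-activating enzyme, rose (0.93, adjusted p = 0.0366) and Ubqln4, a proteasome shuttle, fell (−0.70, adjusted p = 0.0391). There Ubb stood at 0.81 with an adjusted p just above the threshold, and it passed with the replicate block (edgeR adjusted p = 0.0304). Over all genes 8.65% rose and 8.30% fell in the EIIa comparison, and 8.96% and 9.38% in the Myh6 comparison. Counts of 1 of 10 here lie near these shares.

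Receptors that sit on organelles were mostly below the threshold. In the EIIa comparison 1 of 18 tested rose, Retreg2 of the endoplasmic reticulum (0.47, edgeR adjusted p = 0.0239), and in the Myh6 comparison 3 of 18 rose and 2 fell. The mitochondrial receptor Bnip3 rose (1.31, adjusted p = 0.0153), as did Nufip1 (0.84, adjusted p = 0.0363), a receptor for ribosomes, and Retreg2 (0.61, adjusted p = 0.0437), while Phb2 (−0.82, adjusted p = 0.0320) and Fundc1 (−0.76, adjusted p = 0.0163), both mitochondrial, fell. Calcoco2, the gene of NDP52, had no counts in any heart. Among all genes 8.65% rose in the EIIa comparison, and 8.96% rose and 9.38% fell in the Myh6 comparison.

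Among the genes of chaperone-assisted autophagy, in which BAG3 hands damaged filamin to p62, Flnc rose in both models. Flnc, the filamin of striated muscle, stood at 134.5, 153.4 and 149 CPM in EIIa-ctl and 374.8, 235 and 476.2 in EIIa-tg (1.31, edgeR adjusted p = 0.0166), and at 221.5, 212.2 and 282.6 in Myh6-ctl and 823.2, 1274 and 1312 in Myh6-tg hearts (2.25, adjusted p = 0.00372). Bag3 did not pass, at 0.36 and 0.54 (adjusted p = 0.0836 and 0.116). Synpo2, a BAG3 partner at the Z-disc, fell in the EIIa model (−0.51, adjusted p = 0.0236) and rose in the Myh6 model (1.09, adjusted p = 0.0147), and this difference passed its own test (1.60, adjusted p = 0.00529).

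The remaining lists held few calls. Of 8 partners of OPTN, TAX1BP1 and TOLLIP, Myd88 (0.58, edgeR adjusted p = 0.0421) and Rnf11 (0.51, adjusted p = 0.0203) rose in the EIIa model and none passed in the Myh6 model with edgeR or DESeq2, where 1 of 8 had an unadjusted edgeR p under 0.05. Of 6 genes of the titin kinase complex, Fhl2 (−1.20, adjusted p = 0.0335) and Trim55 (−0.47, adjusted p = 0.0301) fell in the EIIa model, and with edgeR none passed in the Myh6 model, where 1 of 6 had an unadjusted p under 0.05, DESeq2 called 1 of 6, and Fhl2 passed with the replicate block (−1.39, adjusted p = 0.0161). Of the 3 TFEB-family genes Mitf fell in the EIIa model (−0.66, edgeR adjusted p = 0.0271), and in the Myh6 model edgeR called none, with 2 of 3 at an unadjusted p under 0.05 and 1 called by DESeq2. In the EIIa comparison 8.65% of all genes rose and 8.30% fell.

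Some markers of other cells also differed between these groups, not the same ones in both models. All 10 macrophage markers were higher in the EIIa comparison, where their summed CPM was 506.3 to 775.5 in controls and 1066 to 1404 in EIIa-tg, and in the Myh6 comparison none of 10 passed with edgeR, 2 had an unadjusted p under 0.05 and DESeq2 called 1, where the sum was 959.6 to 1553 in controls and 1106 to 2425 in Myh6-tg. Of 10 fibroblast markers 4 and 5 were higher, with sums of 3080 to 4050 against 5137 to 7196 CPM and of 3838 to 4736 against 4992 to 11413 CPM, and 1 fibroblast marker was lower in the Myh6 groups under the block. Without EIIa-ctl replicate 1 or 3, or EIIa-tg replicate 1 or 3, none of the 10 macrophage markers passed. Without EIIa-ctl replicate 1, EIIa-ctl replicate 3 or EIIa-tg replicate 1 no gene of any list passed in the EIIa comparison, the receptors included. None of the cardiomyocyte, fibroblast or macrophage markers was at 0 in all 12 hearts. Of 8 endothelial markers 3 fell in the EIIa comparison, and in the Myh6 comparison edgeR called none, with 3 at an unadjusted p under 0.05 and 3 called by DESeq2, while edgeR with the replicate block called 2 lower. Of 8 smooth muscle and pericyte markers, 1 was higher in each comparison, and 1 and 2 were lower, with 1 lower in the Myh6 groups under the block. Of the lymphocyte markers tested, none of 6 passed in the EIIa comparison with edgeR or DESeq2, with 1 at an unadjusted edgeR p under 0.05, and 1 of 8 fell in the Myh6 comparison (0 with the block), and of 4 skeletal muscle markers tested 1 rose and 1 fell in each. These counts stand beside 8.65% higher and 8.30% lower over all genes in the EIIa comparison, and 8.96% and 9.38% in the Myh6 comparison. The part of these cells in the rise of Sqstm1 and of the NRF2 targets was not tested.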

How the data were processed

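RNA from the heart tissue of 12 mice was analysed. Per the labels, libraries were made with a kit whose strand setting is not given in the sources used here, and the submitters' processing notes name HISAT2 2.0.4, StringTie 2.2.1, DESeq2 and the builds GRCm39 and mm10, while the methods name GRCm38. The authors deposited raw counts of reads for every gene as whole numbers. They also deposited FPKM, in which the authors scaled reads to transcript length and depth. Totals were 38343106 to 50969834 counts per heart.

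The counts of the 6 hearts in a comparison were filtered with filterByExpr, scaled by TMM and tested by the quasi-likelihood F test of edgeR 4.0.16 under R 4.3.3 (glmQLFit, glmQLFTest), with Benjamini-Hochberg adjustment over all genes. A gene passed at an adjusted p under 0.05. SE is the log2 fold change over the root of F. The difference between models was fitted in 12 hearts. CPM and the likeness of genes used TMM factors of all 12 hearts and a prior count of 2. In the 200 changed genes (log2 change 1.5) of simulated data, 73% of the EIIa, 30.5% of the Myh6 and 77% of the control comparison were called, with 4, 9 and 15 false calls among 14908, 15298 and 14990 genes. The false calls are set beside all genes, not beside the calls made. In the real comparisons 2527, 2805 and 5 genes passed. The share changed therefore differs from that simulated, and these rates do not describe the real comparisons.

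The receptors, the 18 gene lists and the tests were chosen with earlier results of these data known. Named genes were all receptors, up to 4 genes per pathway list and comparison that passed with the largest change, and, in any case, Keap1, Nfe2l2, Tbk1, Map1lc3a, Map1lc3b, Gabarapl1, Bag3, Ubb and Nqo1. A few genes that these rules name are not reported here. In the Myh6 model deviations of hearts with the same replicate number correlated at 0.173 to 0.285. The sample titles give a replicate number but no pairing, and replicate 1 of each group was also the heart with Y-linked reads. For replicate 1 a pairing and sex therefore cannot be told apart. The main fits hold no block, and the block is an alternative that is given where it changed a call. Positions and coding sequences came from GENCODE M21 and promoters from RefSeq, in which all 6 receptors matched by symbol. Alternatives were DESeq2 1.42.0, RLE factors, other filters, limma 3.58.1 on log2 FPKM with pseudocounts of 1 and 0.1, removal of the 13 mt- genes, a covariate for Y-linked counts, the replicate block, all 12 hearts in one fit and each heart left out. List counts under these were added after seeing the data. The labels call replicates biological. Reads of the transgene were not analysed here. Figures were drawn with matplotlib 3.10.9.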

Additional observations from a re-analysis of the deposited data

Results flagged for a closer look

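The change of 3 genes around the receptors differed between the models by the interaction test of edgeR over all genes. The rise of Gclc in the Myh6 model exceeded that in the EIIa model by 1.59 on the log2 scale (adjusted p = 0.019) and that of Gclm by 1.25 (adjusted p = 0.0134), and in both models all 3 transgenic hearts lay above their controls. For Synpo2 the difference was 1.60 (adjusted p = 0.00529), with all 3 EIIa-tg hearts below and all 3 Myh6-tg hearts above their controls. Without a single heart the difference of Gclc lost its call in 3 of 12 fits (adjusted p up to 0.0546), and those of Gclm and Synpo2 kept it in all 12. With edgeR no receptor passed this test, and with DESeq2 Tax1bp1 did (adjusted p = 0.0449). Groups of 3 hearts are too small for the check of single outlying hearts used here.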

How the results depend on the processing

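Over 1119 values under other settings with all hearts kept, 917 kept their direction and side of the threshold, 104 lost the call, 60 gained it and 38 changed sign. Over 684 values with one heart left out, 460, 165, 18 and 41 did so. Both sets include counts of receptors and of genes called, which have no direction. A count was taken as kept within a set ratio of the main count, and otherwise as lost if lower or gained if higher. Of the named genes that passed, 19 of 19 in the EIIa and 15 of 20 in the Myh6 comparison lost the call without at least 1 single heart. Values in brackets are adjusted p.

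In the EIIa comparison Sqstm1 lost its call under the replicate block (1.498, 0.0631) and limma on log2(FPKM + 1) (1.68, 0.0521). Optn lost it under the block (−1.26, 0.0661), limma on log2(FPKM + 1) (−0.999, 0.0626), limma on log2(FPKM + 0.1) (−1.06, 0.0506) and the fit of 12 hearts (−1.27, 0.246). Thus 0, 0, 1 and 1 receptors were called there. Tax1bp1 gained a call with limma and the FPKM filter (0.43, 0.036). The genes called, 2527 in the report, were 1 under the block, 1680 with the sex covariate, 1 and 1560 with limma at pseudocounts of 1 and 0.1, and 227 with 12 hearts. DESeq2 called 3536 genes, and 836 at the stricter threshold against 0. Same-numbered EIIa hearts correlated at −0.0704 to 0.0602, inside the range of differently numbered EIIa hearts (−0.0868 to 0.137). With 3 pairs this can neither show nor exclude a pairing.

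In the Myh6 comparison Optn gained a call with the sex covariate (−0.96, 0.0445). The genes called, 2805 in the report, were 4228 with limma and the FPKM filter and 5049 with 12 hearts. At the stricter threshold DESeq2 called 2135 genes and the replicate block 969, against 608. Apart from the calls given in the report, the block changed none of those on the genes and lists named. For the difference between models DESeq2 called Tax1bp1 (0.52, 0.0449), 1 receptor and 1395 genes against 624. Between controls DESeq2 called Sqstm1 (0.83, 0.0255), 1 receptor and 428 genes, against 5 in the report, 65 without the filter on low counts, 11 with a CPM of at least 1, 27 under the block, 13 with the sex covariate, and 1 and 2 with limma at pseudocounts of 1 and 0.1.

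FPKM moved the median change of all genes to 0.08 to 0.19 in the EIIa and 0.14 to 0.34 in the Myh6 comparison, and small changes turned sign. Values with limma are given for pseudocounts of 1 (with the filter also) and 0.1. Nbr1 stood at 0.14 and 0.15 (EIIa) and 0.061 and 0.062 (controls). Calcoco1 stood at 0.15 and 0.15 (EIIa), 0.32 and 0.33 (Myh6), and 0.17 and 0.18 (difference). In the Myh6 comparison Map1lc3a stood at 0.32 and 0.32, Nfe2l2 at 0.32 and 0.32 and Trim55 at 0.042 and 0.042. Optn between controls stood at −0.041 and −0.045, at −0.051 under the replicate block and at −0.082 with the sex covariate. With DESeq2, RLE factors and mt- genes removed, Tollip stood at −0.016, −0.016 and −0.027 and Keap1 at −0.0094, −0.0098 and −0.021 in the Myh6 comparison. There Nqo1 stood at −0.21 with the block and with the sex covariate. The difference of Sqstm1 was −0.020 with mt- genes removed. The cause of these turns was not tested beyond the shift of the median.

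With one heart left out, the genes called ranged from 0 to 4079 (EIIa), 798 to 4269 (Myh6), 293 to 1727 (difference) and 3 to 98 (controls), and the receptors called from 0 to 3 in each model. Log2 fold changes in the EIIa comparison ranged from 1.41 to 1.70 (Sqstm1), −1.51 to −1.07 (Optn), 0.19 to 0.30 (Tax1bp1), −0.14 to 0.011 (Calcoco1), −0.013 to 0.064 (Keap1), −0.016 to 0.15 (Map1lc3a) and −0.063 to 0.085 (Phb2). In the Myh6 comparison they ranged from 1.32 to 1.88 (Sqstm1), −1.91 to −0.057 (Optn), 0.69 to 0.82 (Tax1bp1), −0.22 to 0.0080 (Calcoco1), −0.061 to 0.13 (Nbr1), −0.030 to 0.030 (Tollip), −0.0088 to 0.45 (Gabarap), −0.020 to 0.060 (Keap1), −0.25 to 0.13 (Map1lc3a), −0.20 to 0.069 (Nfe2l2), −0.94 to 0.67 (Nqo1), −0.013 to 0.30 (Rnf11) and −1.498 to 0.095 (Ryr2). Differences between models ranged from −0.21 to 0.34 (Sqstm1), −0.64 to 1.23 (Optn) and −0.17 to 0.065 (Calcoco1), and changes between controls from −0.082 to 0.11 (Nbr1) and −0.50 to 0.22 (Optn).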
